A study of Mus musculus with 5 samples.

Results

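The genes of the translation initiation factors were examined in a ChIP-seq map of the zinc finger protein ZFP541. Members were all protein-coding genes of the mm10 RefSeq table whose symbol begins with Eif and a digit from 1 to 6, and 56 of 21775 protein-coding genes met this rule. A further 11 pseudogenes and 1 lncRNA gene carry such symbols and were not used. Chromatin was taken from pachytene and diplotene spermatocytes that had been enriched by sedimentation (STA-PUT) from testes of adult C57BL/6 mice, Zfp541-/- or WT. There were 1 ChIP library of Zfp541-/- cells and 2 ChIP libraries of WT cells, all with an antibody raised against residues 1 to 300 of ZFP541, and 2 WT input libraries without antibody, which were not analysed here. Read depth is unknown from the peak lists, so the absence of a peak does not show that a gene was unbound. The labels do not tell whether separate animals gave the WT replicates. The purity of the cells could not be checked, since peak lists hold no expression values.

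Translation initiation brings the initiator tRNA, the ribosome and the mRNA together at a start codon. eIF2 carries the initiator tRNA, eIF2B reloads eIF2 with GTP, and eIF2 kinases block that step under stress. eIF3 is the large scaffold on the small ribosomal subunit, and eIF4E, eIF4G and eIF4A bind the mRNA cap, bridge it to the ribosome and unwind the mRNA. In spermatocytes many transcripts are made well before they are translated, so regulation of initiation is a known feature of this tissue.

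No member had a peak in the Zfp541-/- list, against 22 members (39.3%) in WT replicate 1 and 27 (48.2%) in WT replicate 2, where a peak had to overlap the gene or the 1 kb on either side of it. Over all protein-coding genes the share with such a peak was 0.22% in the Zfp541-/- list, 27.8% in WT replicate 1 and 32.6% in WT replicate 2. The Zfp541-/- list held only 256 peaks, against 8236 and 10371 in the WT lists, and with a share of 0.22% over all genes the count of 0 says little about the members. Genotypes could not be tested against each other, since Zfp541-/- cells had 1 library. The nearest Zfp541-/- peak to any member lay 2339 bp outside Eif4enif1, which encodes the nuclear transporter of eIF4E, with a fold enrichment of 2.79. WT replicates 1 and 2 had peaks of 2.61 and 2.16 at the same place, and none of these reached the gene's window.

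The following promoters are shown because the WT summits at Eif4h, Eif1b and Eif3a fell inside the printed window in both replicates, because Eif2ak3 had the highest mean percentile of fold over both WT lists among the members, and because Eif2s1 and Eif2s3x had no peak in any list. Each runs 5′ to 3′ from 250 bases before to 50 bases after the most upstream annotated start, from RefSeq on GRCm38.p6, the assembly of mm10. For Eif4h (chr5:134639360-134639659, minus strand), Eif1b (chr9:120492356-120492655, plus strand) and Eif3a (chr19:60790644-60790943, minus strand), capitals mark the bases from one replicate's summit to the other's. For Eif2ak3 (chr6:70844265-70844564, plus strand) capitals mark CCAAT on either strand, and for Eif2s1 (chr12:78861822-78862121, plus strand) and Eif2s3x (chrX:94212602-94212901, minus strand) they mark TGCGCA.
Eif4h: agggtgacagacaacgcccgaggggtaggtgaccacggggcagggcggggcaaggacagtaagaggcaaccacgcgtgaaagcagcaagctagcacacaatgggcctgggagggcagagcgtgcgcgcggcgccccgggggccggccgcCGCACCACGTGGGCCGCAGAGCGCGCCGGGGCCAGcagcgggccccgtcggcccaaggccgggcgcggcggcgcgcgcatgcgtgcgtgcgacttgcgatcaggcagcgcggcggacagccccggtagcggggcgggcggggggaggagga
Eif1b: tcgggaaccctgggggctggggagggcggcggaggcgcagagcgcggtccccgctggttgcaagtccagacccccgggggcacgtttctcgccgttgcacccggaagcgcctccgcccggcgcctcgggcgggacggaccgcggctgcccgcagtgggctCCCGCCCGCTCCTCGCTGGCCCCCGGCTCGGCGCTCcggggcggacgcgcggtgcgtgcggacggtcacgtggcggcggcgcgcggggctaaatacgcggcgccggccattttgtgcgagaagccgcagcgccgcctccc
Eif3a: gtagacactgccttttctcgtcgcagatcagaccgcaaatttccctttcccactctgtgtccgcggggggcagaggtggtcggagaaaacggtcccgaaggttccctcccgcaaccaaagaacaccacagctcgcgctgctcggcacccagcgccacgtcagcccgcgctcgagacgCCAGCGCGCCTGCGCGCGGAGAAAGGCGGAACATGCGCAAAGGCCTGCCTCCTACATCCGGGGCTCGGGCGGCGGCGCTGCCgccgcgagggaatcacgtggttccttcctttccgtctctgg
Eif2ak3: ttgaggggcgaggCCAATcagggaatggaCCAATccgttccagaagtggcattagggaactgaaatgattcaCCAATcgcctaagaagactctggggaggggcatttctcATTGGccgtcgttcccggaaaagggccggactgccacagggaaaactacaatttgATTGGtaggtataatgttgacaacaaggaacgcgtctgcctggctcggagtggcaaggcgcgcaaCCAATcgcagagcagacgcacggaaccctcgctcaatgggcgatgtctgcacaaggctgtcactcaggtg
Eif2s1: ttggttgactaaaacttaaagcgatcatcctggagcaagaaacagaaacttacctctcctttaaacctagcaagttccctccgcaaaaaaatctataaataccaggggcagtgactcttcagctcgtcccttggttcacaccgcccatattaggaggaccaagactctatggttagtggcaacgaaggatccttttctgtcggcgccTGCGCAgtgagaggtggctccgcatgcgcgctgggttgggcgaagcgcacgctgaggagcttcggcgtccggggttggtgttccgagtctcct
Eif2s3x: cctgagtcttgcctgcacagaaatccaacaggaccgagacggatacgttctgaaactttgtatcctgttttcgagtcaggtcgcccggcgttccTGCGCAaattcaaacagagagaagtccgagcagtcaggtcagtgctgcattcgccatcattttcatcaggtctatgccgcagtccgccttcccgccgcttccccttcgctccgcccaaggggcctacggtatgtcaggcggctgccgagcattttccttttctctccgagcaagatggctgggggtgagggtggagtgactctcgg

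Both WT lists had peaks at the same place for 19 of the 56 genes (33.9%), against 23.9% of all protein-coding genes. A shared region here is a set of overlapping peaks (at least 1 bp) that includes both WT replicates and no Zfp541-/- peak, and 5325 such regions were found in the genome. All 19 genes had the region within 1 kb of a gene end, where the share over all genes was 21%. A further 10 members had a peak in a WT list without being shared, and 27 had none in any list. Only 27.8% and 32.6% of all protein-coding genes had a peak in WT replicates 1 and 2. The share of all genes without any peak was not counted, so the 27 do not set the family apart. The median gene length was 18497 bp for the members and 17219 bp for all protein-coding genes, and 24054 bp for the 19 genes against 12522 bp for the other 37 members. The part of gene length in these shares was not tested.

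**Figure D1:**
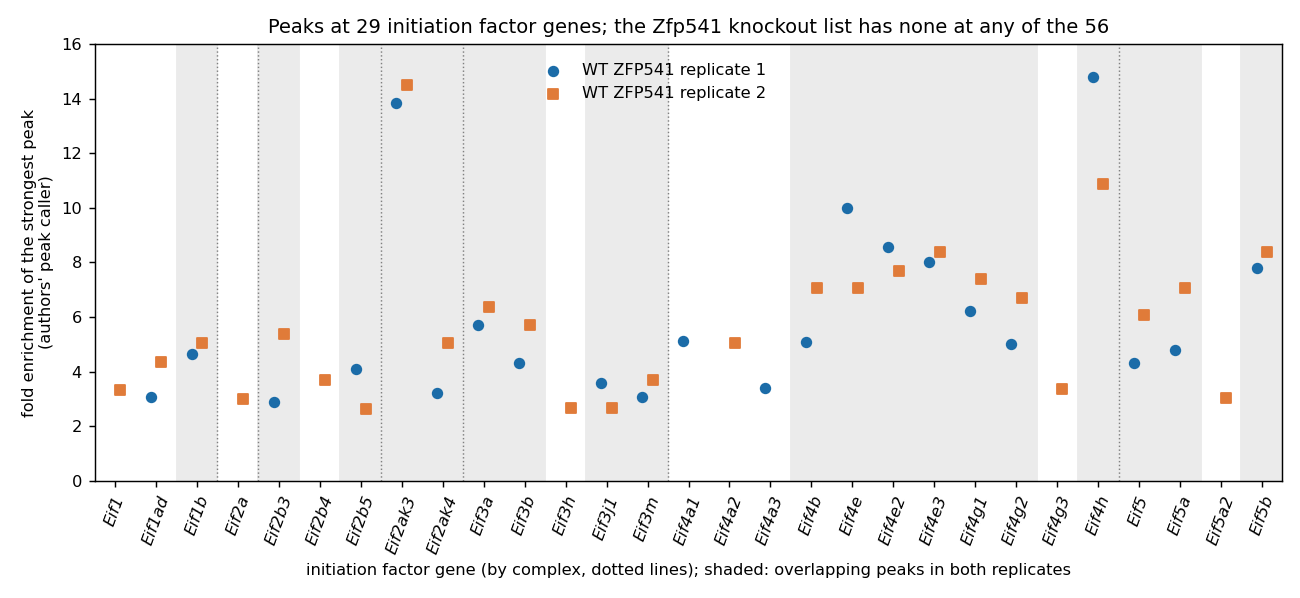
Fold enrichment of the strongest peak (vertical axis, linear) at each of the 29 initiation factor genes with a peak in a WT list, with WT replicate 1 as circles and WT replicate 2 as squares and genes ordered by complex. Shaded columns are the 19 genes with overlapping peaks in both replicates. Eif2ak3 and Eif4h stand above the other genes in both replicates, and no Zfp541-/- point exists at any of the 56 genes. The Zfp541-/- list held only 256 peaks and had one at 0.22% of all protein-coding genes, so this absence says little about the members.

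Counts of shared regions were taken for each complex. The eIF4 factors and their partners had 7 of 17, the eIF5, eIF5A, eIF5B and eIF6 genes 3 of 5, eIF3 4 of 14, eIF2B 2 of 5, the eIF2 kinases 2 of 4, eIF1 and eIF1A genes 1 of 5, and the group of eIF2, eIF2A and eIF2D genes 0 of 6. Over all protein-coding genes the share was 23.9%, and with groups this small the counts do not set any complex apart. No test between the groups was run.

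**Figure D2:**
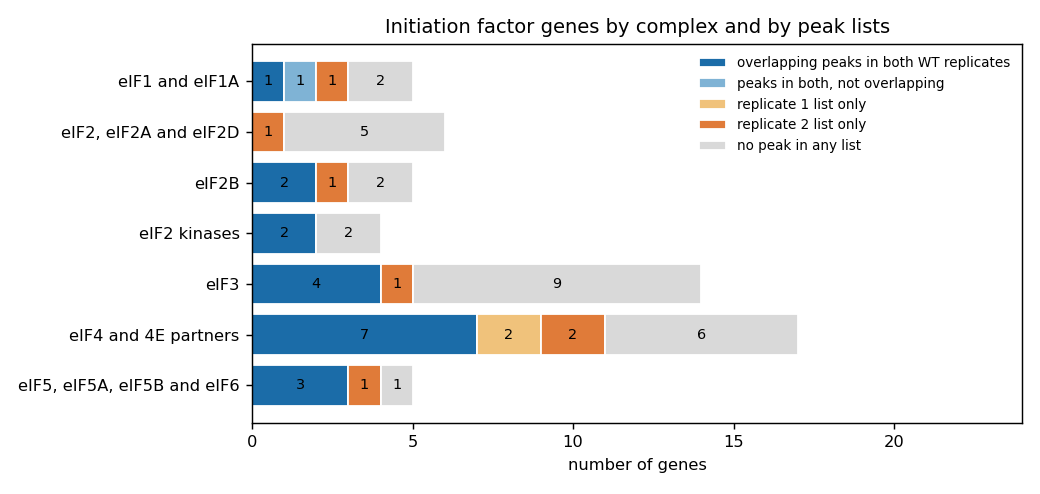
Number of initiation factor genes (horizontal axis) in each of 7 groups, divided by which peak lists held a peak at the gene. The eIF2, eIF2A and eIF2D group has no gene with overlapping WT peaks, and the eIF4 group has 7. Over all protein-coding genes the share with a shared region was 23.9%, and groups this small are not set apart by their counts.

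Among cap-binding factors, 3 of 4 eIF4E genes had a shared region, against 23.9% of all protein-coding genes. With only 4 genes this count does not set them apart. Eif4e, the general cap-binding protein, had peaks with folds of 10.0 and 7.05 in WT replicates 1 and 2 (chromosome 3, 138527015 to 138528631). Fold here is the enrichment that the authors' peak caller gave, and all folds are the authors' values. Its −log10 q was 18.9 and 10.7, its region was 1617 bp wide and its summits lay 1844 and 1574 bp from the nearest gene end. Eif4e2, which encodes a cap-binding protein that does not bind eIF4G and is known for repressing mRNAs, had 8.57 and 7.68 (chromosome 1, 87213808 to 87214688). That region was 881 bp wide, with −log10 q of 14.5 and 15.5 and summits 101 and 119 bp from the gene end. Eif4e3 had 8.02 and 8.39 at its higher-coordinate end (chromosome 6, 99691936 to 99694033) and a second region of 4.29 and 3.69 inside the gene, 26219 and 26467 bp from the nearer end. The stronger region was 2098 bp wide with summits 45 and 92 bp from the end and −log10 q of 14.5 and 14.8, and the inner one was 469 bp wide with 3.13 and 2.15. By fold, Eif4e, Eif4e2 and Eif4e3 stood at the 91.9, 87.5 and 85.5 percentiles of replicate 1 peaks and the 80.8, 83.6 and 86.7 percentiles of replicate 2 peaks, so their order was reversed between the replicates. Eif4e1b, the germ-line eIF4E known from oocytes, had no peak in any list. Gpr27, a receptor gene, also has an end within 1 kb of the stronger Eif4e3 region, and the peak was not assigned to either gene.

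Shared regions were also found at scaffold and helper factors of the cap complex. Eif4h, which encodes an RNA-binding cofactor of the helicase eIF4A, had the highest fold of the family in replicate 1, with 14.8 and 10.9 in WT replicates 1 and 2 (chromosome 5, 134638354 to 134640032). The region was 1679 bp wide, with −log10 q of 40.3 and 25.3 and summits 101 and 67 bp from the gene end. Eif4b, a second cofactor of eIF4A, had 5.10 and 7.08 over 1221 bp (chromosome 15, 102073561 to 102074781), with −log10 q of 9.46 and 14.7 and summits 509 and 522 bp from the gene end. Eif4g1, the main scaffold that joins cap, helicase and ribosome, had 6.23 and 7.38 over 1762 bp (chromosome 16, 20671984 to 20673745), with −log10 q of 9.97 and 11.7 and summits 688 and 663 bp from the gene end. Eif4g2, a scaffold that does not bind eIF4E, had 5.0 and 6.71 over 976 bp (chromosome 7, 111082035 to 111083010), with −log10 q of 4.75 and 9.76 and summits 514 and 613 bp from the gene end. Both replicates placed Eif4h well above Eif4b, Eif4g1 and Eif4g2. Eif4g3, whose loss is known to arrest male meiosis in mice, had no peak at its ends and only a peak of 3.36 inside the gene in replicate 2.

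Of the helicase genes, 0 of 4 had a shared region, and of the genes for 4E-binding proteins and the eIF4E transporter also 0 of 4. Against 23.9% of all genes, counts this small do not set these genes apart. Eif4a1, the main helicase, had a peak of 5.11 in replicate 1 only, Eif4a2 had one of 5.04 in replicate 2 only, and Eif4a3, a core subunit of the exon junction complex, had one of 3.39 in replicate 1 only. Eif4a3l1 had none. The 4E-binding protein genes Eif4ebp1, Eif4ebp2 and Eif4ebp3, whose products hold eIF4E inactive, and Eif4enif1 had no peak in any list.

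At the genes of the eIF2 cycle, WT peaks were found at some regulators, and 0 of the 4 eIF2 subunit genes had one, a count too small to set apart from the 27.8% and 32.6% of all genes with a peak in WT replicates 1 and 2. Eif2s1, which encodes the subunit that the stress kinases phosphorylate, Eif2s2, the X-linked Eif2s3x and the Y-linked Eif2s3y had no peak in any list. Eif2s3y is known in mice as a Y-linked gene needed for the proliferation of spermatogonia. Eif2ak3, also known as Perk, the kinase that senses unfolded proteins in the endoplasmic reticulum, had folds of 13.8 and 14.5 in WT replicates 1 and 2 (chromosome 6, 70843752 to 70845678), at the 97.9 percentile of each list. Its region was 1927 bp wide, with −log10 q of 35.7 and 39.9 and summits 163 and 188 bp from the gene end. Eif2ak4, also known as Gcn2, the kinase that senses uncharged tRNA, had 3.21 and 5.04 over 835 bp (chromosome 2, 118388218 to 118389052), with −log10 q of 1.01 and 5.23 and summits 50 and 153 bp from the gene end. The replicates placed Eif2ak4 far apart, at the 18.2 percentile of replicate 1 and the 66.5 percentile of replicate 2. Eif2ak1 and Eif2ak2, the kinases known for responding to heme shortage and to double-stranded RNA, had no peak.

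Of the eIF2B subunit genes, Eif2b3 had folds of 2.90 and 5.37 over 378 bp (chromosome 4, 117019339 to 117019716), with −log10 q of 1.01 and 6.08 and summits 127 and 31 bp from the gene end. Eif2b5, which encodes the catalytic subunit, had 4.09 and 2.65 over 476 bp (chromosome 16, 20498728 to 20499203), with −log10 q of 3.11 and 0.516 and summits 138 and 278 bp from the end. The order of these genes differed between the replicates. The Eif2b5 peaks overlapped by 107 bp. Eif2b4 had a peak of 3.69 in replicate 2 only, and Eif2b1 and Eif2b2 had none. Eif2a and Eif2d encode factors that can deliver initiator tRNA without eIF2. Eif2a had a peak of 3.02 in replicate 2 only, and Eif2d had none.

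The eIF3 genes with shared regions were Eif3a, Eif3b, Eif3m and Eif3j1. Eif3a, the largest scaffold subunit, had folds of 5.71 and 6.38 in WT replicates 1 and 2 over 931 bp (chromosome 19, 60790125 to 60791055), with −log10 q of 6.50 and 8.80 and summits 73 and 8 bp from the gene end. Eif3b, a core subunit with an RNA recognition motif, had 4.32 and 5.71 over 1129 bp (chromosome 5, 140418777 to 140419905), with −log10 q of 3.71 and 6.96 and summits 49 and 126 bp from the end. Both genes were lower than Eif4h and Eif2ak3 in each replicate. Eif3m had 3.08 and 3.69 over 419 bp (chromosome 2, 105016666 to 105017084), with −log10 q of 1.01 and 2.15 and summits 225 and 229 bp from the end. Eif3j1, which encodes a loosely attached subunit, had 3.59 and 2.69, and its peaks met by only 1 bp (chromosome 2, 122028233 to 122028783). That region was 551 bp wide, with −log10 q of 2.13 and 0.314 and summits 110 and 296 bp from the end, so Eif3m and Eif3j1 were the weakest of the 4. Eif3h had a peak of 2.69 in replicate 2 only. Eif3c, Eif3d, Eif3e, Eif3f, Eif3g, Eif3i, Eif3j2, Eif3k and Eif3l, 9 of the 14 eIF3 genes, had no peak in any list. With a peak at only 27.8% and 32.6% of all genes in WT replicates 1 and 2, this count does not set the eIF3 genes apart.

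Among the start codon factors, Eif1b, a close relative of Eif1, had folds of 4.64 and 5.04 in WT replicates 1 and 2 over 512 bp (chromosome 9, 120492199 to 120492710), with −log10 q of 3.92 and 5.23 and summits 90 and 55 bp from the gene end. Eif1, which guards start codon choice during scanning, had only a peak of 3.32 in replicate 2. Eif1ad had peaks of 3.08 in replicate 1 and 4.36 in replicate 2 that did not overlap. Eif1a and the X-linked Eif1ax, which encode eIF1A, had none. Of the 3 members on the X or Y chromosome 0 had a peak, which at 27.8% and 32.6% of all genes in WT replicates 1 and 2 says little about them.

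The late factors carried shared regions at 3 genes. Eif5b, the GTPase that joins the ribosomal subunits, had folds of 7.81 and 8.39 in WT replicates 1 and 2 over 1118 bp (chromosome 1, 37997617 to 37998734), with −log10 q of 15.1 and 14.8 and summits 397 and 385 bp from the gene end. Eif5, which triggers GTP hydrolysis on eIF2, had 4.33 and 6.09 over 1065 bp (chromosome 12, 111537813 to 111538877), with −log10 q of 4.25 and 9.85 and summits 525 and 526 bp from the end. Eif5a, the hypusine-bearing factor that helps the ribosome through difficult peptide bonds, had 4.80 and 7.05 over 1958 bp (chromosome 11, 69919992 to 69921949), with −log10 q of 6.85 and 10.7 and summits 987 and 835 bp from the end. Eif5b was the highest of these in both replicates. Its neighbour Txndc9 also has an end within 1 kb of the region, and no other shared region of a member besides that of Eif4e3 had such a neighbour among protein-coding genes. Eif5a2, the second eIF5A gene, had a peak of 3.02 in replicate 2 only, and Eif6, which keeps the large ribosomal subunit free, had none.

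Peak strength at the members was close to that of shared regions in general. The 20 shared regions at the 19 genes had median folds of 4.90 in replicate 1 and 6.55 in replicate 2, against 5.36 and 6.04 over all 5325 regions. Their median width was 1021 bp, against 1061 bp. Replicate 2 had the higher fold at 14 of the 20 regions (70%), against 59.1% of all regions. Across the 20 regions the folds of the replicates had a Spearman rho of 0.889, a description of sites that share the same libraries. Fold values move in steps: 210 replicate 2 peaks carried the same fold (5.04) and −log10 q (5.23) as the peaks at Eif1b, Eif2ak4 and Eif4a2, so weak peaks often tie. The 9 members with a peak in 1 list only had folds of 2.69 to 5.11.

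Stricter thresholds lowered the share of members with a shared region and the share of all genes alike. At a −log10 q of at least 5 in both lists, 10 of 56 members (17.9%) had a shared region, against 13.7% of all protein-coding genes. At a −log10 q of at least 10, 6 members (10.7%) did, against 7.88%. These 6 were Eif2ak3, Eif4e, Eif4e2, Eif4e3, Eif4h and Eif5b. No eIF3, eIF2B or eIF1 gene was among them, and no gene of the eIF2, eIF2A and eIF2D group. With 7.88% of all genes at this threshold, these absences say little about the groups.

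**Figure D3:**
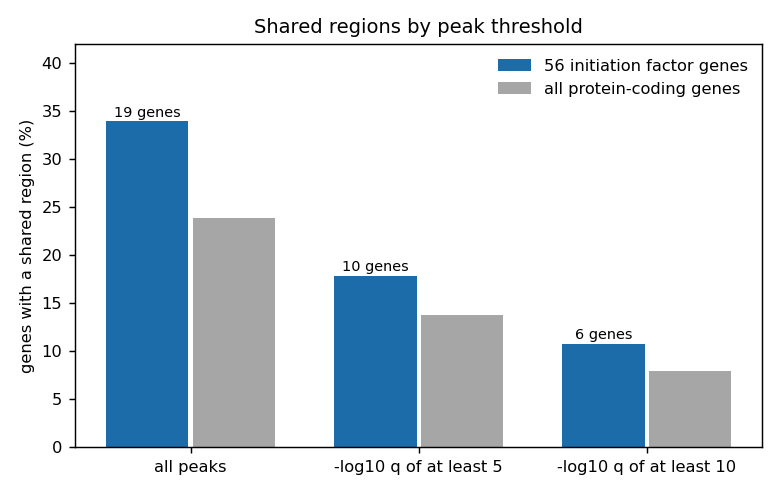
Share of genes with a shared WT region (vertical axis, percent) at 3 thresholds of peak −log10 q, for the 56 initiation factor genes and for all 21775 protein-coding genes. Counts of members stand above their bars and are 19, 10 and 6.

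Positions relative to start sites were taken where the start was known. Strand and start sites were known for 44 of the 56 members, and 12 were not in the promoter table: Eif6, Eif2b3, Eif3i, Eif4e3, Eif4g2, Eif4ebp1, Eif4e1b, Eif3e, Eif3h, Eif4ebp3, Eif3j2 and Eif1a. Of the 44, 16 (36.4%) had a shared region within 1 kb of a start site, against 21.7% of 17491 protein-coding genes in the table. At the far end of the gene the counts were 0 of 44 and 1.89%. Summits of the 16 genes lay a median of 113 bp into the gene in replicate 1 and 141.5 bp in replicate 2, against 95 bp and 101 bp over all genes with a region at a start. At 10 of the 16 (62.5%) both summits were downstream of the nearest start, against 57.3% of all such genes.

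At several genes the replicates placed the summit at nearly the same distance from the start. The summits of Eif5 lay 525 and 526 bp downstream in WT replicates 1 and 2, and those of Eif4b 509 and 522 bp. Those of Eif4g1 lay 681 and 656 bp downstream and those of Eif5b 397 and 385 bp. Upstream summits were found at Eif4h, at positions -101 and -67 bp, and at Eif1b, at -90 and -55 bp, where negative positions lie before the start. The median gap between the replicates' summits was 79 bp at the members and 90 bp over all shared regions. Gaps were widest at the weak pair of peaks at Eif3j1, with 406 bp, and at Eif4e, with 270 bp. Eif4e has 2 annotated start sites, and its peaks lay 767 and 497 bp downstream of the second. Eif5a has 6, and its summits, 152 bp apart, lay at -24 and -38 bp from 2 different ones.

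**Figure D4:**
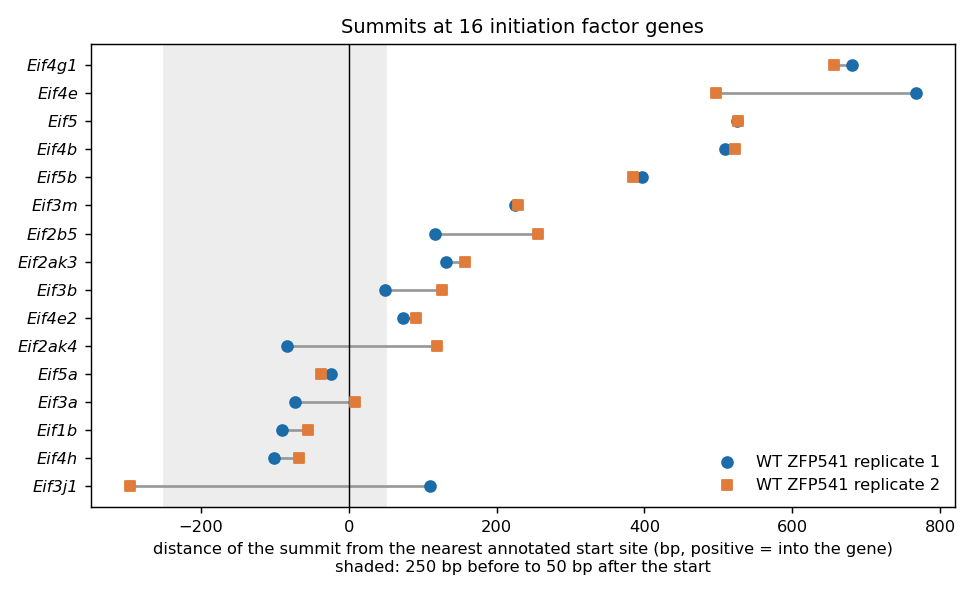
Distance of the peak summit from the nearest annotated start site (horizontal axis, bp, positive into the gene) in WT replicate 1 (circles) and WT replicate 2 (squares) at the 16 initiation factor genes with a shared region at a start. The shaded band runs from 250 bp before to 50 bp after the nearest start. It matches the promoter window only where that start is the most upstream one, which is not so for Eif4e and Eif5a. The summits of Eif5, Eif4b, Eif4g1 and Eif5b lie 385 to 681 bp downstream, outside that band.

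Promoters of the family were rich in CpG, and so were those of genes with shared regions in general. The printed window held a median of 23.5 CpG dinucleotides in the 44 members, against 13 in all 17491 protein-coding genes. Over all genes the median was 27 with a shared region and 8 without one. Within the family the 16 members with a shared region and the 28 without one had the same median, 23.5. Among genes with 25 to 65 CpG, 6 of 19 members had a shared region, against 55.7% of all genes. Among genes with 14 to 24 CpG, 7 of 20 members did, against 26.8%. With 5 to 13 CpG the counts were 3 of 4 members and 12.8% of all genes. The 3 were Eif4e and Eif5a, with 11 CpG each, and Eif2b5, with 9, and the peaks at Eif4e and Eif5a lay by starts downstream of the window counted. The part of CpG content in the family's share was not tested.

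**Figure D5:**
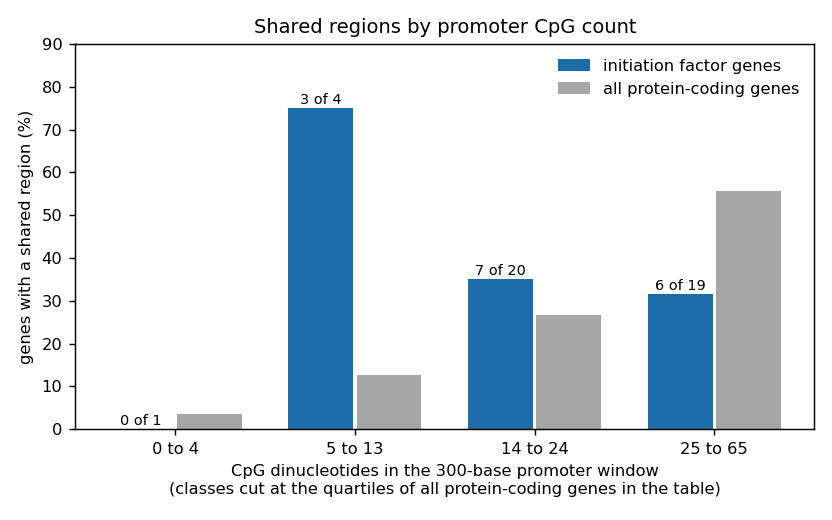
Share of genes with a shared WT region (vertical axis, percent) by the number of CpG dinucleotides in the 300-base promoter window (horizontal axis), for initiation factor genes and for all protein-coding genes in the table. In the class of 25 to 65 CpG the members have 6 of 19 and all genes 55.7%.

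In the printed sequences, the stretch between the summits was 35 bases at Eif4h, with 6 CpG, 36 bases at Eif1b, with 6 CpG, and 82 bases at Eif3a, with 12 CpG. The palindrome CACGTG, the core of the E-box, began at position -96 of Eif4h, inside that stretch. It also occurred at -24 in the Eif1b window and at 22 in the Eif3a window, outside the stretches. CACGTG was found in 4 of 16 members with a shared region (25%), in 4 of 28 without one (14.3%) and in 7.91% of all protein-coding promoters. Members' windows held more CpG than all promoters, with medians of 23.5 and 13. The shares of CACGTG and the other motifs that contain CG were not matched for this, and its part in them was not tested. TGCGCA, a palindrome within the NRF1 site, stood between the summits of Eif3a and equally in the promoters of Eif2s1 and Eif2s3x, which had no peak. It was found in 25% of members with a shared region, 21.4% of those without and 10.1% of all promoters. The Eif2ak3 window held 6 copies of CCAAT over both strands, more than any other member, and its summits lay 132 and 157 bp downstream of the start, beyond the window.

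Of the other 5 motifs searched on both strands, GGGCGG, the core of the Sp1 site, was found in 68.75% of members with a shared region, 75% of those without one and 46.3% of all promoters. CCGGAAG, the core of the ETS site, was found in 18.75%, 39.3% and 11.9% in that order. CCAAT itself gave 18.75%, 39.3% and 39.2%. TATAAA gave 6.25%, 10.7% and 13.3%, and AAGATGG, part of the YY1 site, 6.25%, 14.3% and 6.35%. TGACGTCA, the full cAMP response element, was in no member's window and in 2.33% of all promoters. A match describes the letters of the window and is no site of binding.

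Among other genes of translation and its control, 20 of 55 (36.4%) had a shared region and 19 had one at a gene end, against the 23.9% and 21% given above. None had a Zfp541-/- peak. Shares were 7 of 15 among partners of the poly(A) tail and cap, 4 of 9 among elongation factors, 4 of 9 in growth signalling, 2 of 8 among initiation helpers, 2 of 7 in stress signalling and 1 of 7 in termination and recycling. Rheb, the GTPase that activates mTOR, had folds of 9.94 and 11.7 in WT replicates 1 and 2. Paip2b, an inhibitor of poly(A)-binding protein, had 8.94 and 11.4, and Larp1b had 7.71 and 8.39. Larp1, which binds the cap of mRNAs for ribosomal proteins, had 9.29 and 9.40 but away from its ends, and was picked for mention after its values were seen. These 4 genes, the highest of the 20 by mean percentile of fold, lay above the median folds of all shared regions in both replicates, as did Tsc1. Tsc1 and Tsc2, which encode the complex that restrains Rheb, had 5.71 and 7.05, and 6.43 and 4.07. Eef1d had 6.78 and 5.96, Eefsec 5.36 and 3.71, Eef1a1 4.20 and 4.36 and Eef2, the translocase, 2.28 and 3.54. Shared regions were also present at Paip1 (5.71 and 4.70), Ncbp1 (4.29 and 5.71), Gigyf1 (4.90 and 2.38) and Pabpc1 (2.55 and 2.32), and at Bzw2 (3.87 and 6.38), Mtif3 (3.57 and 4.03), Abce1 (2.55 and 3.42) and Rps6kb1 (2.90 and 5.30). At Mtif3 the replicate 1 peak of the region lay outside the gene's window, and only the replicate 2 list had a peak within it. In stress signalling, Gcn1, the partner of GCN2, had 3.93 and 3.18 and Ddit3, a target gene of the PERK branch, 2.44 and 3.32.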

How the data were processed

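Peak lists of 3 ChIP libraries were used. The submitters' processing notes name the mm10 build and, with no order of use, MACS2 2.2.6, deepTools 3.5.0, Picard, SAMtools 1.10, Bowtie2 2.3.5 and cutadapt 2.6; how each was set, and which control and threshold the peak calls had, is not given in the sources used here. The deposited lists, 1 per library, give, per peak, a score (10 times the −log10 q, decimals dropped), the fold enrichment as a ratio, the summit offset, −log10 p and −log10 q. The deposited lists reach past a q-value of 0.05, in 19.2% of WT replicate 1 peaks and 22.6% of WT replicate 2 peaks. The lowest −log10 p was 4.47 in the Zfp541-/- list, against 2.71 and 2.54 in the WT lists, so the lists reach down to different p-values. Whether the peak calls used different thresholds is unknown.

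Genes came from RefSeq on GRCm38.p6; 108 protein-coding entries placed before 3 Mb of an autosome or X were left out. Overlapping WT peaks were joined into regions, and a region's fold in a replicate is that of its strongest peak there. Percentiles rank folds within a list. The promoter table gave strand and start sites, and sequence counts used each gene's most upstream start. Members, groups and gene lists were chosen with earlier results of these data known. All 56 members are named, those with a shared region with fold, −log10 q, width and summit distance, and of the other translation genes those with a shared region at an end. No test was run: peak lists hold no counts and the knockout has 1 library. The overlap step, tested on simulated data, recovered all 200 genes set as occupied among 5349, with 0 false. Those genes lay far from other genes, and their simulated peaks sat at the gene start, nearly aligned between replicates. Slight overlaps and close neighbours were therefore not covered. Python 3.11.15, numpy 2.4.6, pandas 2.3.3 and matplotlib 3.10.9 were used. Alternatives were stricter q-values, a 50% reciprocal overlap, summits, other windows, each replicate alone and Zfp541-/- peaks kept.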

Additional observations from a re-analysis of the deposited data

How the results depend on the processing

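At a −log10 q of at least 5, peaks were at 11 members in WT replicate 1 and 17 in WT replicate 2, and shared regions at 10, all at gene ends. At 10 these counts were 6, 9 and 6. Shared regions were at 13.7% and 7.88% of all protein-coding genes at these minima. For the other counts here the share over all genes was not taken, so they do not compare members with other genes. Within 10 kb, a setting chosen after seeing the data, 1 member (Eif4enif1) had a Zfp541-/- peak, against 0 within 2 kb. Without replicate 1, 27 members had a region and 26 had one at an end; without replicate 2, 22 and 21. With a q-value of at most 0.05, or with the lowest −log10 p of the Zfp541-/- list as a minimum (also chosen after seeing the data), 14 members remained, without Eif2ak4, Eif2b3, Eif2b5, Eif3j1 and Eif3m. A reciprocal overlap of 50% also left 14, without Eif2ak4, Eif2b5, Eif3j1, Eif5a and Eif5b. The count stayed 19 by summits, with flanks of 500 bp or 2 kb and with Zfp541-/- peaks kept; at gene ends, summits and the 500 bp flank gave 18. Eif2ak3, Eif4e, Eif4e2, Eif4e3 and Eif4h kept a shared region in the gene window under all 11 alternatives. Some of these settings were looser than the main one, and some thresholds were weaker than another in the list. They are therefore not 11 separate checks. No paired analysis was possible because the replicate numbers are shared only with input libraries that were not analysed and with 1 Zfp541-/- library, and no result comes from a test. Depth is unknown, so weak peaks limit every count.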
